A study of Mus musculus with 4 samples.

Results

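The nuclei described here were corticospinal nuclei from brains that had received Sox11 by virus, sorted by the size of their transcriptional response into a responding and a non-responding side. They came from the 2 Sox11 libraries of a study with 4 libraries of single-nucleus RNA sequencing. A nucleus entered if its barcode held 8000 or more unique molecular identifiers (UMIs, each standing for 1 captured transcript), at least 1 UMI of Slc17a7, at least 1 of Fezf2, Bcl11b or Crym, and none of Gad1 or Gad2. The response sum was the number of UMIs of Gpc2, Zfp57, Chn2, Kcnk2 and Thsd7a together. Nuclei with a sum of 3 or more were called responding, and nuclei with a sum of 0 non-responding. The gate held 2803 of the 6549 barcodes of the Sox11 libraries. Of these, 1330 were responding and 856 non-responding, so that the compared sides held 2186 of the 12582 barcodes of all 4 libraries.

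All mice were adult and of genotype C57BL/6, and the labels give no treatment beside the virus. AAV2-Retro, an adeno-associated virus that is taken up at axon ends, was injected into the cervical spinal cord with Sox11 or a control cargo, and brain tissue was collected 2 weeks later. Both groups had 2 libraries, named here Sox11 1, Sox11 2, Control 1 and Control 2, made from fluorescence-sorted nuclei. The promoter of the virus, the animals' ages and how many animals were pooled in a library are unknown here. Every p-value therefore rests on these libraries only and does not measure the spread between animals, and a difference may be technical.

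Corticospinal neurons are glutamatergic projection neurons of cortical layer 5 whose axons run to the spinal cord and drive skilled movement. In the adult they regrow little after injury. Slc17a7 encodes the vesicular glutamate transporter of the cortex, Fezf2 and Bcl11b specify the subcerebral projection fate, and Crym marks these neurons in the adult. Gad1 and Gad2 make GABA and mark inhibitory neurons. Sox11 is a transcription factor of the SoxC family that is active in newborn neurons, where it acts on genes of maturation and axon growth, and that adult cortical neurons have largely shut down.

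The response sum spread over a wide range within each Sox11 library. In Sox11 1, 824 of 1371 gated nuclei were responding (60.1%, exact 95% binomial interval 57.5 to 62.7) and 292 non-responding (21.3%). In Sox11 2, 506 of 1432 were responding (35.3%, 32.9 to 37.9) and 564 non-responding (39.4%). The same rule in the Control libraries called 38 of 982 nuclei (3.87%, 2.75 to 5.27) and 25 of 843 (2.97%, 1.93 to 4.35) responding. Intervals cover counting error only. The 5 genes set these shares, so they are a description with no test.

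**Figure D1:**
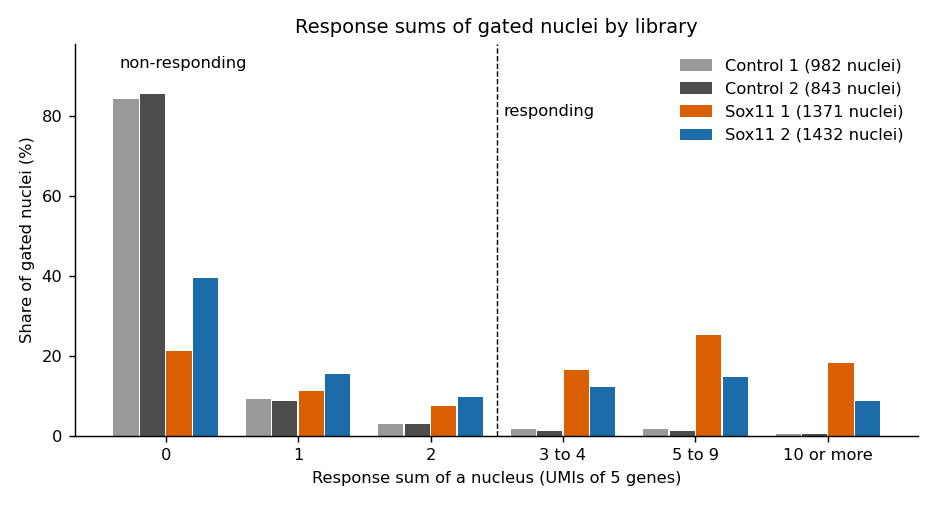
Share of gated nuclei (percent, vertical axis) at each response sum (UMIs of the 5 genes, horizontal axis) in the 4 libraries; the dashed line marks the lower limit of the responding side at 3. In the Control libraries 84.1% and 85.5% of nuclei stood at 0, against 21.3% and 39.4% in Sox11 1 and Sox11 2.

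The nuclei nearest the limit were those with sums of 2 and of 3 or 4. Sums of 2, just outside, held 7.51% of gated nuclei in Sox11 1 and 9.71% in Sox11 2. Sums of 3 or 4, just inside, held 16.6% and 12.2%. At the upper end, 18.2% and 8.59% had sums of 10 or more. Thinning every nucleus to 8000 UMIs, which removes the advantage of deep nuclei, left 33.2% and 15.6% responding in Sox11 1 and Sox11 2 and 1.63% and 1.30% in Control 1 and Control 2. The order of the libraries was the same before and after thinning.

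The levels of the 5 rule genes on the responding side are given as a description, since their sum chose the nuclei. Gpc2, a cell-surface heparan sulphate proteoglycan of developing neurons, stood at 47.6 and 36.3 CPM (UMIs scaled to a fixed library total) in the responding nuclei of Sox11 1 and Sox11 2. Zfp57, a zinc finger protein that guards imprinted methylation, stood at 42.0 and 55.7 CPM there. In the responding nuclei of Control 1 and Control 2, Gpc2 stood at 2.45 and 6.67 CPM and Zfp57 at 2.45 and 2.67 CPM, on 2 to 5 UMIs each. Thsd7a, a membrane protein with thrombospondin domains that had the most UMIs of the 5 in every library, stood at 183 and 123 CPM in those Control nuclei and at 129 and 116 CPM in the Sox11 libraries. Only 1 of the 5 genes was detected in 5.70% and 7.11% of responding nuclei of Sox11 1 and Sox11 2, against 52.6% and 36% in Control 1 and Control 2.

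Each subset of the rule also separated the genes that it did not use. This is a description and no independent check, since the 5 genes were chosen together as the rule. With the sides set by Gpc2 and Zfp57 alone (0 against 2 or more), 35.1% and 24.9% of nuclei of Sox11 1 and Sox11 2 were responding. The same subset called 0 of 982 nuclei in Control 1, which allows a share of up to 0.305% (3 counts; the exact 95% interval reaches 0.375%), and 2 of 843 in Control 2 (0.237%). Between those sides the guanine nucleotide regulator Chn2 went from 20.0 to 91.4 CPM in Sox11 1 and from 7.89 to 50.4 CPM in Sox11 2. The potassium channel gene Kcnk2 went from 18.6 to 54.6 CPM and from 7.57 to 33.7 CPM. Thsd7a went from 42.7 to 119.6 CPM in Sox11 1 and from 21.6 to 101 CPM in Sox11 2. With the sides set by Chn2, Kcnk2 and Thsd7a alone, Gpc2 went from 6.78 to 42.4 CPM in Sox11 1 and from 5.27 to 32.5 CPM in Sox11 2. Zfp57 went from 7.66 to 38.0 CPM and from 9.75 to 48.8 CPM. Those 3 genes called 6.11% and 5.58% of Control nuclei responding, more than the full rule.

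The sides differed in more than the 5 genes. Median UMIs per nucleus were 23702.5 on the non-responding and 20550.5 on the responding side of Sox11 1, but 18741 and 23363 in Sox11 2, so depth ran in opposite directions in the libraries. Malat1, a nuclear long noncoding RNA, was lower on the responding side of both libraries (115696 to 60213 CPM in Sox11 1 and 134864 to 69468 CPM in Sox11 2, non-responding to responding), and its part in the results was not tested. Both Sox11 libraries held nuclei of female and male mice, told apart by Xist and Y-linked transcripts. By the same transcripts 970 of 982 gated nuclei of Control 1 were female and 814 of 843 of Control 2 male, and the rest were unassigned. Sex and library therefore cannot be told apart in the Control libraries. Comparisons with them set libraries of both sexes against libraries of a single sex each. Of female nuclei 67.4% were responding in Sox11 1 and 38.4% in Sox11 2, and of male nuclei 47.8% and 31.4%. Nuclei with the highest doublet scores made up 0.685% and 3.16% of the non-responding and responding sides of Sox11 1, 3.72% and 9.49% in Sox11 2, and 36.8% and 40% of the responding nuclei of Control 1 and Control 2. Without these nuclei, 743 of 770 genes that rose by at least 2-fold and 542 of 547 that fell by as much were called again in the same direction. The share with a UMI of Slc17a6 or a Hox gene, markers of neurons outside the cortex, was 7.53% and 8.98% in Sox11 1, 10.8% and 15.8% in Sox11 2, and 42.1% and 48% in the Control responding nuclei. Cell Ranger versions differed between the libraries, and comparisons of sides within a library do not mix them. No barcode of a gated nucleus was shared between libraries.

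The mouse Sox11 gene itself was counted at low levels (2.27 to 4.44 CPM in Sox11 1 and 2.41 to 4.09 CPM in Sox11 2, non-responding to responding). Its log2 fold change was 0.77 (SE 0.27, adjusted p = 0.0138, edgeR quasi-likelihood test), and 0.67 with an adjusted p of 0.0685 when library and sex of the nuclei together formed the block. Non-responding nuclei of Control 1 and Control 2 had 2.28 and 2.70 CPM. Responding nuclei there had 13.4 and 13.3 CPM, more than those of the Sox11 libraries. The Sox11 minus Control difference in rise was -1.44 and did not pass (adjusted p = 0.0734, edgeR). In the Sox11 libraries the log2 fold change was 0.32 with Gpc2 and Zfp57 alone setting the sides. Without nuclei that had a UMI of Slc17a6 or a Hox gene it was 0.36. The deposited gene tables of the Sox11 libraries also hold an entry named Sox11 among the vector sequences, with 1 and 7 UMIs on the non-responding and responding side of Sox11 1 and 0 and 6 in Sox11 2. Transgene dose per nucleus could not be read from so few UMIs.

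To find what else separated the sides, UMIs were summed over the nuclei of each side and library and the 4 sums were compared with the library as a block. Of 15728 genes tested, 2860 (18.2%) were higher and 2898 (18.4%) lower in responding nuclei at an adjusted p under 0.05 (Benjamini-Hochberg adjusted). Those percentages are the background against which the main counts of the gene lists below are read. The median log2 fold change of all tested genes was -0.0041. Most changes were small: 806 of the higher and 567 of the lower genes changed by at least 2-fold, and the rest by less. Relative to libraries that had received no Sox11, the responding sums stood outside both non-responding Control sums for 2615 of the 2860 higher and 2100 of the 2898 lower genes, while over all tested genes both responding sums lay above the Control sums for 34.6% and below them for 23.3%.

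These calls depend on the block, since 4 sums leave 1 residual degree of freedom and the fit takes its spread from all genes together. Without the library term 511 genes were higher and 301 lower of 15728 tested, and DESeq2 called 1074 and 1040 of 15728. With Gpc2 and Zfp57 alone setting the sides 2583 were higher and 2598 lower of 15678. Thinned nuclei gave 1401 and 1487 of 12731, and nuclei without a UMI of Slc17a6 or a Hox gene 2773 and 2825 of 15188. Counts of list members from these fits are to be read against these numbers. Unadjusted counts have no such background here. The sides were set from the same nuclei that were compared, so a p-value is only a description. It sets a difference against the spread pooled over all genes, and not against that gene's own agreement between the libraries. Grik1, for example, rose by 2.15 in Sox11 1 and 4.29 in Sox11 2 on the log2 scale, at an adjusted p of 2.47e-69 (edgeR). An exact permutation test of 2 sums against 2 that ignores the pairing by library cannot go below p = 0.333.

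Among the 12 genes with the largest rise at a mean of 10 CPM or more, 8 stood at 22.7 CPM or less in the responding nuclei of both Control libraries, and the other 4 at 41.4 CPM or more. Of these 8, Gm16351, Tox3 and Nkain1 also rose between the Control sides (3.51, 2.67 and 2.74, adjusted p = 0.000763, 0.00709 and 0.0248, edgeR). The difference between their Sox11 and Control rises did not pass (adjusted p = 0.910, 0.458 and 0.780, edgeR). Psd2, Vcan and 2610307P16Rik did not pass between the Control sides, and St8sia2 and Igsf9 were not tested there. Adjusted p-values of all 12 ran from 6.01e-118 to 1.70e-48 in the edgeR test. In each the 2 responding sums lay above both non-responding sums. That is no further support, because the genes were chosen as the largest called rises with the same direction in both libraries. St8sia2, which adds polysialic acid chains to the neural cell adhesion molecule in developing brain, rose most (log2 fold change 3.59, SE 0.19). Its level went from 2.27 to 29.7 CPM in Sox11 1 and 1.71 to 21.2 CPM in Sox11 2. Both responding sums were far above the non-responding sums and above both Control libraries, where responding nuclei had 1.22 and 0 CPM on at most 1 UMI.

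The other 7 of these 8 genes have varied roles. Vcan, which encodes the chondroitin sulphate proteoglycan versican, went from 4.93 to 44.0 CPM in Sox11 1 and 5.13 to 54.9 CPM in Sox11 2 (log2 fold change 3.24, SE 0.14). Igsf9, an immunoglobulin-type adhesion molecule of dendrites, went from 2.00 to 21.2 CPM in Sox11 1 and 2.25 to 16 CPM in Sox11 2 (2.98, SE 0.20). The groups did not overlap for either gene. Nkain1, whose product binds a subunit of the sodium pump, went from 2.53 to 25.1 CPM in Sox11 1 and 2.64 to 21.8 CPM in Sox11 2 (3.07, SE 0.18). Psd2, an exchange factor for Arf GTPases, went from 4.00 to 42.7 CPM in Sox11 1 and 4.89 to 37.9 CPM in Sox11 2 (3.06, SE 0.14). Tox3, a transcription factor with an HMG box, went from 4.53 to 42.9 CPM in Sox11 1 and 3.73 to 36.0 CPM in Sox11 2 (3.18, SE 0.15). In nuclei thinned to 8000 UMIs, a UMI of Tox3 was found in 4.79% of non-responding and 27.7% of responding nuclei of Sox11 1 and in 2.84% and 24.5% of those of Sox11 2. For Vcan these shares were 4.45% and 24.8%, and 4.61% and 27.5%. The rise of these genes thus showed in the share of nuclei with a transcript as well as in the summed level.

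Noncoding genes also rose. Gm16351, annotated as an antisense transcript within the locus of Sorbs2, went from 2.40 to 33.3 CPM in Sox11 1 and 3.73 to 31.8 CPM in Sox11 2 (3.26, SE 0.16). Sorbs2, an actin-linked adaptor on the opposite strand, rose by 0.54 on the log2 scale (adjusted p = 8.88e-13). No source used here says whether the counting used strand, so reads of the pair may not be told apart. The transcript 2610307P16Rik went from 1.60 to 41.8 CPM in Sox11 1 and 1.63 to 6.40 CPM in Sox11 2 (3.45, SE 0.21). Its rise was 4.52 in Sox11 1 and 1.81 in Sox11 2 on the log2 scale, and without the library term its adjusted p was 0.0610. It lies at chr13:28460034-28885620 (mm10, minus strand), 63299 bases from Sox4 at chr13:28948919-28953713 on the same strand. Sox4, the closest relative of Sox11 among the SoxC genes, did not pass the test (4.13 to 4.55 CPM in Sox11 1 and 3.34 to 3.16 CPM in Sox11 2, log2 fold change -0.05, adjusted p = 0.908).

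**Figure D2:**
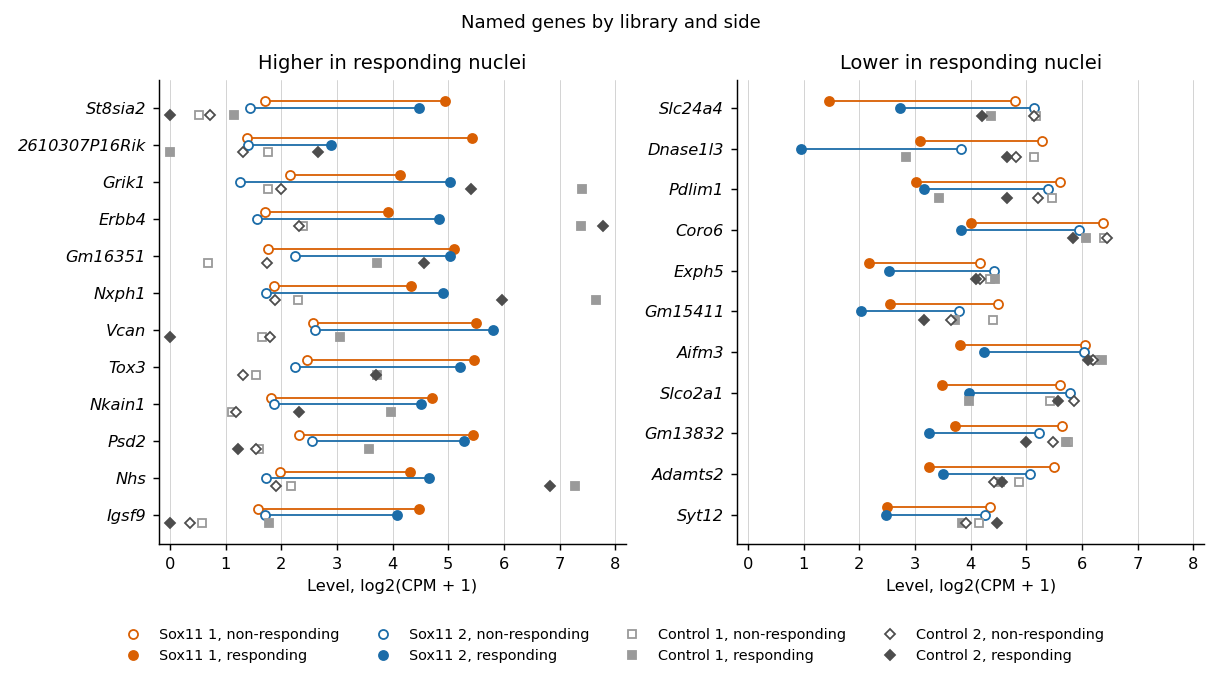
Levels of the 12 genes with the largest rise and 11 with the largest fall, as log2 of CPM plus 1 (horizontal axis), in the non-responding (open) and responding (filled) sum of each library; lines join the sums of a Sox11 library. The filled Sox11 symbols lie apart from the open ones for all 23 genes, while Grik1, Erbb4, Nxph1 and Nhs are higher still in the responding nuclei of the Control libraries.

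The core sequence bound by Sox proteins is ACAAAG or ACAATG, and the start regions of the risen genes were searched for both on either strand. RefSeq windows (GRCm38.p6) from 250 bases before to 50 bases after the start were held for 10 of the 12 genes, and 3 of these windows had a match. Over all 32851 windows of that length, 28.6% had at least 1 match and 5.59% at least 2. The 3 windows are shown because they were the ones with a match, in capitals. They belong to 2610307P16Rik (chr13:28885373-28885672, minus strand, 2 matches), Gm16351 (chr8:45604855-45605154, minus strand, 1 match) and Nkain1 (chr4:130573987-130574286, minus strand, 1 match).
2610307P16Rik: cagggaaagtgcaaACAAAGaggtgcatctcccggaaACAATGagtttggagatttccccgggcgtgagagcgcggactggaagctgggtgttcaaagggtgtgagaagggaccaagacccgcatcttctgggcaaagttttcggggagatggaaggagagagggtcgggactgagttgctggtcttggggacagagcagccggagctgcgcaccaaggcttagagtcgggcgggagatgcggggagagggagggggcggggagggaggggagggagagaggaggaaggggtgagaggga
Gm16351: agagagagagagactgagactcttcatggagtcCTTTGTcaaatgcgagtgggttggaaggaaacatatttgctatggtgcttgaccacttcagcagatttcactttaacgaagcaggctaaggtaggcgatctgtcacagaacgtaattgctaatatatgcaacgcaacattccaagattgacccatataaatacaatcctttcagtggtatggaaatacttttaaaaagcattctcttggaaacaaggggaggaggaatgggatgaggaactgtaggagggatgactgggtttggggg
Nkain1: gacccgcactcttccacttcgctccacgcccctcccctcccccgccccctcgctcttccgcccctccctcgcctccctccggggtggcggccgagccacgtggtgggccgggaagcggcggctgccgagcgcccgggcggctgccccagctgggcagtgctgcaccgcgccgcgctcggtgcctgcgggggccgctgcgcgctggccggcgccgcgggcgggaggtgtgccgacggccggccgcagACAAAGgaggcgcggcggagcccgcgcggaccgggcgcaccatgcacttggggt
The match in Gm16351 reads CTTTGT, the reverse complement of ACAAAG. A match is a description of these letters and not a bound site, and the share among the risen genes was close to that of all windows.

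The other 4 of the 12 genes were higher in the responding nuclei of both Control libraries than in those of the Sox11 libraries. Erbb4, a neuregulin receptor best known from cortical inhibitory neurons, went from 2.27 to 14.2 CPM in Sox11 1 and 1.94 to 27.5 CPM in Sox11 2, while the responding nuclei of Control 1 and Control 2 had 166 and 219 CPM. Nxph1, a secreted ligand of neurexins, went from 2.66 to 19 CPM in Sox11 1 and 2.33 to 28.9 CPM in Sox11 2, against 202 and 61.4 CPM in the Control responding nuclei. Grik1, a kainate receptor subunit, went from 3.46 to 16.6 CPM in Sox11 1 and 1.40 to 31.6 CPM in Sox11 2, against 168 and 41.4 CPM. Nhs, a regulator of the actin cytoskeleton, went from 2.93 to 18.8 CPM in Sox11 1 and 2.33 to 24.1 CPM in Sox11 2, against 154 and 112 CPM. Few responding nuclei of the Sox11 libraries carried them: after thinning, 3.28% and 5.53% had a UMI of Grik1, 3.88% and 4.74% of Erbb4, 4.98% and 6.52% of Nxph1, and 6.55% and 7.71% of Nhs.

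These 4 genes also behaved differently when the sides were set in another way. With Gpc2 and Zfp57 alone setting the sides, Erbb4 was lower in responding nuclei (log2 fold change -0.62, adjusted p = 0.000224), Nxph1 stood at -0.17 (adjusted p = 0.340), and Grik1 at 0.10 (0.604) and Nhs at 0.30 (0.0698) did not pass. Without nuclei that had a UMI of Slc17a6 or a Hox gene, their log2 fold changes were 1.89, 1.81, 2.25 and 1.54. The other 8 rose in these fits, by 1.75 to 2.46 on the log2 scale with Gpc2 and Zfp57 alone. They rose by 1.65 to 3.18 when nuclei were thinned to 8000 UMIs before the sides were set. Over the 806 genes that rose by at least 2-fold, 593 of the 793 tested with Gpc2 and Zfp57 alone were called in the same direction and 68 had the opposite sign. With Chn2, Kcnk2 and Thsd7a alone the corresponding counts were 752 of 803 and 0. Of the 567 genes that fell by at least 2-fold, 473 of 530 were called in the same direction with Gpc2 and Zfp57 alone and none had the opposite sign. Some of the largest rises thus depended on which of the 5 genes set the sides.

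**Figure D3:**
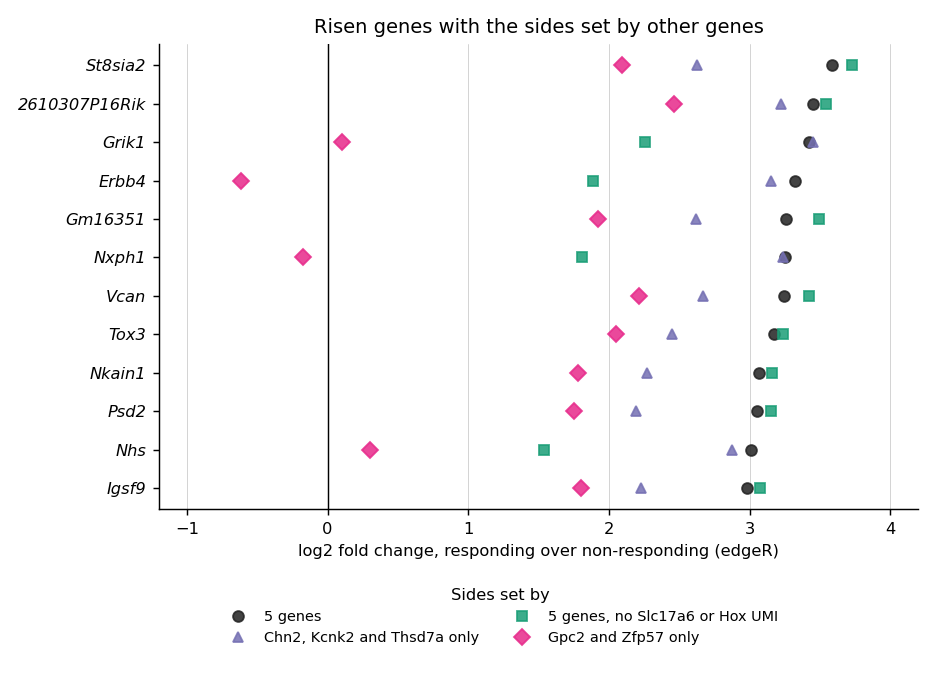
Log2 fold change of the 12 risen genes (responding over non-responding, edgeR) with the sides set by all 5 genes, by Chn2, Kcnk2 and Thsd7a, by Gpc2 and Zfp57, or by all 5 genes without nuclei that had a UMI of Slc17a6 or a Hox gene. Grik1, Erbb4, Nxph1 and Nhs lie between -0.62 and 0.30 with Gpc2 and Zfp57 alone, and the other 8 stay above 1.7.

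The 11 genes reported from those with the largest fall were lower in responding Sox11 nuclei than in the non-responding nuclei of all 4 libraries. Their adjusted p-values ran from 1.40e-118 to 1.92e-35 in the edgeR test. In each the responding sums lay below both non-responding sums, which is again no further support given how the genes were chosen. Slc24a4, a sodium, calcium and potassium exchanger, fell most (log2 fold change -3.20, SE 0.15). It went from 26.6 to 1.74 CPM in Sox11 1 and 34.1 to 5.63 CPM in Sox11 2, and non-responding Control nuclei had 35 and 34.2 CPM. Slco2a1, a prostaglandin transporter that marks corticospinal neurons, went from 47.4 to 10.2 CPM in Sox11 1 and 54.1 to 14.6 CPM in Sox11 2 (-2.13, SE 0.11).

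Actin-linked and vesicle genes were among the others. Coro6, a coronin that binds actin, went from 82.1 to 15.1 CPM in Sox11 1 and 60.8 to 13.2 CPM in Sox11 2 (-2.41, SE 0.10). Pdlim1, an adaptor at actin filaments, went from 47.6 to 7.08 CPM in Sox11 1 and 40.7 to 7.95 CPM in Sox11 2 (-2.64, SE 0.12). Non-responding nuclei of Control 1 and Control 2 had 83.3 and 86.3 CPM of Coro6 and 43.0 and 35.9 CPM of Pdlim1. Non-responding Sox11 nuclei were close to these levels, except for Coro6 in Sox11 2, which was lower at 60.8 CPM. Syt12, a synaptotagmin of synaptic vesicles, went from 19.3 to 4.65 CPM in Sox11 1 and 18.0 to 4.55 CPM in Sox11 2, and Exph5, an effector of the GTPase Rab27, from 17.1 to 3.54 CPM in Sox11 1 and 20.3 to 4.78 CPM in Sox11 2. Aifm3, of the family of apoptosis-inducing factors, went from 65.6 to 13.0 CPM in Sox11 1 and 65.0 to 17.8 CPM in Sox11 2. Adamts2, a protease that trims procollagen, went from 44.2 to 8.56 CPM in Sox11 1 and 32.5 to 10.3 CPM in Sox11 2, and Gm12198, which overlaps it on the opposite strand, also fell (-2.64). Dnase1l3, a secreted nuclease, had log2 fold changes of -2.37 in Sox11 1 and -3.69 in Sox11 2, and without the library term its adjusted p was 0.123. The noncoding genes Gm13832 and Gm15411 fell by 2.12 and 2.19.

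St8sia2 and Slc24a4 changed in steps over the response sum. St8sia2 stood at 2.27, 10.1, 14.6, 18.6, 31.2 and 35.3 CPM in Sox11 1 nuclei with sums of 0, 1, 2, 3 to 4, 5 to 9, and 10 or more. In Sox11 2 it stood at 1.71, 5.37, 11.1, 14.3, 19.5 and 29.6 CPM. Nuclei with sums of 1 and 2, which belong to neither side, were intermediate for St8sia2. Slc24a4 stood at 26.6, 15.9, 7.55, 1.55, 1.51 and 2.12 CPM over the same steps in Sox11 1, and at 34.1, 26.0, 11.9, 5.55, 6.37 and 4.81 CPM in Sox11 2. Its level fell up to a sum of 3 or 4 and then stayed low. Other genes did not follow the order of the sums: Grik1 stood at 1.40, 12.5, 2.96, 24.8, 46.4 and 20.0 CPM in Sox11 2, and Erbb4 at 2.27, 3.75, 13.7, 1.77, 13.3 and 23.0 CPM in Sox11 1.

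**Figure D4:**
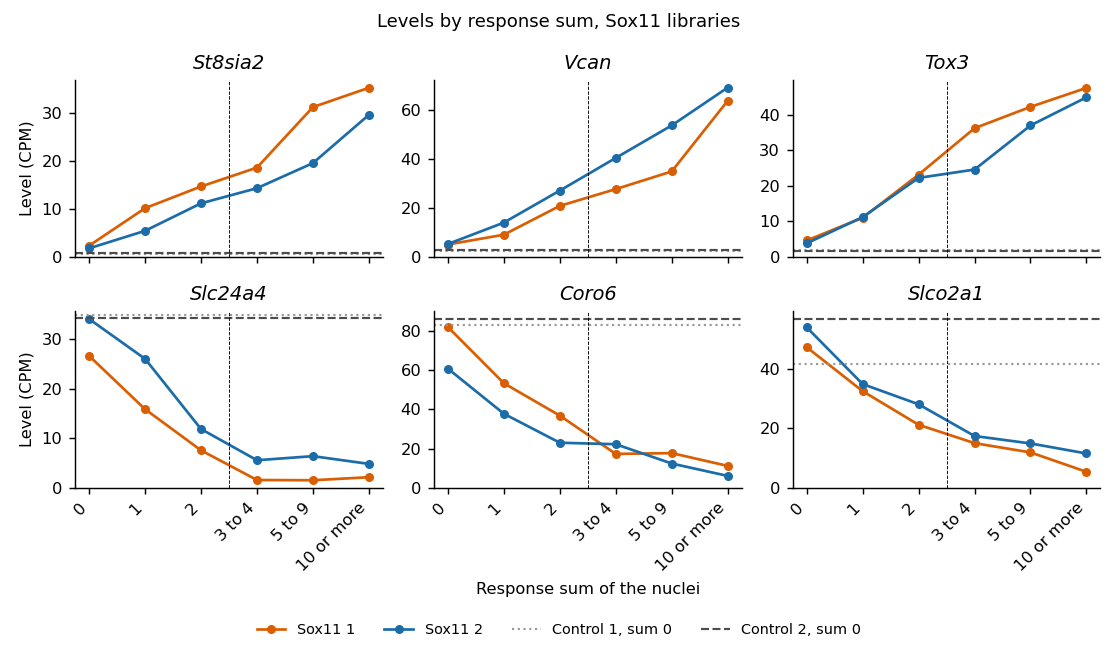
Level (CPM, vertical axis, one scale per gene) of 3 risen and 3 fallen genes in nuclei grouped by response sum (horizontal axis) in Sox11 1 and Sox11 2; horizontal lines give the Control nuclei with a sum of 0 and the vertical line marks the responding limit. St8sia2 climbs from 2.27 and 1.71 CPM at 0 to 35.3 and 29.6 CPM at 10 or more, and Slc24a4 falls from 26.6 and 34.1 to 2.12 and 4.81 CPM.

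Genes of immature neurons were the list with the largest share of risen members. Of 47 tested, 33 rose and 3 fell, with a median log2 fold change of 0.52, against 18.2% higher and 18.4% lower over all genes. Dcx, a microtubule protein of migrating neurons, went from 71.6 to 232 CPM in Sox11 1 and 80.3 to 235 CPM in Sox11 2 (1.54, SE 0.08). The collapsin response mediators Dpysl3 and Dpysl5, which steer growing axons, went from 45 to 233 CPM in Sox11 1 and 45.2 to 213 CPM in Sox11 2, and from 31.3 to 129.6 CPM in Sox11 1 and 25.3 to 115 CPM in Sox11 2. Stmn1, which destabilises microtubules, rose by 1.31 and the fetal tubulin gene Tubb2b by 1.82 on the log2 scale. The RNA-binding gene Mex3a went from 2.80 to 19.7 CPM in Sox11 1 and 1.71 to 13.4 CPM in Sox11 2. Smaller rises were found for the tubulin gene Tubb3 (0.60), Map1b (0.52), Basp1 (0.46) and the transcription factor gene Nfib (0.60). Gap43, a protein of growth cones, did not pass the test (247 to 220.4 CPM in Sox11 1 and 208 to 212 CPM in Sox11 2, adjusted p = 0.0888). Nfia, Kif26a and Stmn3 fell by 0.33, 0.52 and 0.21. With Gpc2 and Zfp57 setting the sides 32 genes of the list were higher and 2 lower (median 0.41), and 18 higher and 0 lower without the library term (27 and 1 at an unadjusted p under 0.05).

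Cytoskeleton and growth cone genes moved less. Of 55 tested, 19 rose and 7 fell (median 0.13), and without the library term 3 rose and 0 fell (10 and 0 unadjusted). Cald1, an actin- and myosin-binding protein, went from 6.00 to 43.5 CPM in Sox11 1 and 5.28 to 27.5 CPM in Sox11 2 (2.52, SE 0.14). Evl, which extends actin filaments at growth cones, went from 95.8 to 218 CPM in Sox11 1 and 80.1 to 163 CPM in Sox11 2, and Map2 rose by 0.41. The Rac regulator Chn1 fell by 0.23 on the log2 scale.

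More ligand genes of axon guidance rose than fell. Of 36 ligand genes tested, 18 rose and 2 fell (median 0.35), 14 rose and 4 fell with Gpc2 and Zfp57 setting the sides, and 9 rose without the library term. Sema6d, a transmembrane semaphorin, went from 551 to 1238 CPM in Sox11 1 and 544 to 1165 CPM in Sox11 2 (1.05, SE 0.07), and Sema6a from 9.06 to 62.4 CPM in Sox11 1 and 8.86 to 36.5 CPM in Sox11 2. The secreted repellents Sema3a and Sema3f rose by 1.92 and 3.25, and Draxin by 3.89, Sema3f and Draxin from under 1 CPM. Slit3 and Sema4b fell by 0.44 and 0.47. Of 31 receptor genes, 12 rose and 12 fell (median 0.10), and 4 and 2 did so without the library term. Dcc, the netrin receptor, went from 48.5 to 154 CPM in Sox11 1 and 51.0 to 188 CPM in Sox11 2 (1.70, SE 0.08), and the semaphorin receptor genes Plxnb1 and Nrp2 rose by 3.37 and 2.77 from under 1 CPM; Nrp2 also stood at 15.9 and 17.3 CPM in the Control responding nuclei. Nrp1, a paralogue of Nrp2, fell from 313 to 192 CPM in Sox11 1 and 239 to 174 CPM in Sox11 2. Epha10 fell by 1.10, Robo3 by 1.76 and Unc5b by 1.82 on the log2 scale. Within the receptor families the members therefore moved in both directions. The difference between the ligand and receptor lists was not tested.

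Adhesion and matrix genes were divided as well. Of 54 adhesion genes, 18 rose and 21 fell (median -0.03), and 7 and 2 without the library term. L1cam, an adhesion molecule of growing axons, went from 24.1 to 76.2 CPM in Sox11 1 and 29.1 to 58.3 CPM in Sox11 2 (1.22), and its relative Chl1 from 108 to 202 CPM in Sox11 1 and 115 to 237 CPM in Sox11 2. The integrin gene Itgb8 and the large cadherin gene Fat4 rose by 3.0 and 2.71, and Cdh2 and Ncam1, which encode N-cadherin and the carrier of polysialic acid, by 0.80 and 0.72. Alcam fell from 91.9 to 29.6 CPM in Sox11 1 and 71.1 to 39.5 CPM in Sox11 2 (-1.32), and Cdh20 and Cntn5 fell by 1.13 and 0.87. Of 24 matrix genes, 9 rose and 4 fell (median 0.27), but 5 rose and 8 fell with Gpc2 and Zfp57 setting the sides, and 6 rose and 9 fell without nuclei that had a UMI of Slc17a6 or a Hox gene. Beside Vcan, Ptprz1, a receptor phosphatase that carries chondroitin sulphate, went from 2.00 to 19.6 CPM in Sox11 1 and 2.87 to 18.3 CPM in Sox11 2 (2.82), and the neurocan gene Ncan rose by 0.67. Hapln4, a link protein of perineuronal nets, fell by 1.43.

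Transcription factor and chromatin genes rose more often than they fell. Of 52 developmental regulators, 22 rose and 5 fell (median 0.11), and 8 rose without the library term. Ezh2, the histone methyltransferase of the Polycomb complex, went from 20.9 to 77.2 CPM in Sox11 1 and 21.9 to 81.7 CPM in Sox11 2 (1.81, SE 0.10). Zbtb20 and Myt1 rose by 1.5 and 1.25, and Rorb went from 16.8 to 52.0 CPM in Sox11 1 and 24.4 to 64.3 CPM in Sox11 2. Etv4, a target of fibroblast growth factor signalling, went from 12.9 to 40.9 CPM in Sox11 1 and 3.65 to 9.88 CPM in Sox11 2, so that the responding sum of Sox11 2 lay below the non-responding sum of Sox11 1. Hes1 fell by 0.92 and Sox9, a glial regulator, by 2.73 from at most 1.24 CPM. Of 38 histone and chromatin genes, 18 rose and 3 fell (median 0.26). Chd3 and the BAF subunit genes Smarcc1 and Smarcc2 rose by 0.91, 0.73 and 0.76, and Hdac2 by 0.63. The DNA methyltransferase gene Dnmt3a, which acts in mature neurons, went from 165 to 98.5 CPM in Sox11 1 and 117 to 79.3 CPM in Sox11 2. DESeq2 called 13 higher and 1 lower chromatin genes, and edgeR without the library term 1 and 0 (14 and 1 at an unadjusted p under 0.05).

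Growth factor and injury-response genes gave no uniform direction. Of 37 growth factor and receptor genes, 14 rose and 8 fell (median 0.12), 8 rose and 9 fell with Gpc2 and Zfp57 setting the sides, and 4 and 2 without the library term. Met, the receptor of hepatocyte growth factor, went from 7.46 to 46.3 CPM in Sox11 1 and 19.4 to 59.7 CPM in Sox11 2 (1.88), and Tgfbr1 from 21.9 to 65.2 CPM in Sox11 1 and 27.1 to 72.5 CPM in Sox11 2. Nrg1, the ligand of Erbb4, rose by 0.95. The neurotrophin gene Bdnf fell by 0.66, the co-receptor gene Tgfbr3 by 1.16 and the BMP antagonist gene Chrd by 1.31. Of 27 tested genes linked to regeneration, 10 rose and 6 fell (median 0.18), and 3 and 1 without the library term. Klf7 and Klf6, which favour axon growth, rose by 0.74 and 0.64, and Klf9, which restrains it, went from 56.2 to 34.9 CPM in Sox11 1 and 55.0 to 40.0 CPM in Sox11 2. Jun, a core gene of the injury response in peripheral neurons, fell by 1.25 from under 3 CPM in both libraries. Tubb3, L1cam, Chl1 and Nrcam, which rose, and Gap43 stand on other lists too.

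Genes of transmitter release were lower on balance. Of 53 synaptic vesicle genes, 11 rose and 28 fell (median -0.21), and 2 rose and 6 fell without the library term. Syn2, a synapsin of vesicle clusters, went from 259 to 154 CPM in Sox11 1 and 282 to 186 CPM in Sox11 2 (-0.75, SE 0.07). Sv2c, a vesicle glycoprotein, went from 32.6 to 6.87 CPM in Sox11 1 and 32.3 to 10.0 CPM in Sox11 2 (-2.04), and the fast calcium sensor gene Syt2 fell by 1.05. The release factor genes Vamp2 and Nsf fell by 0.66 and 0.37. Snap25 did not pass (1335 to 1377 CPM in Sox11 1 and 1271 to 1405 CPM in Sox11 2, adjusted p = 0.895). Unc13c rose most (4.93 to 21.9 CPM in Sox11 1 and 1.71 to 20.8 CPM in Sox11 2, log2 fold change 2.75) and stood at 198 and 103 CPM in the responding nuclei of Control 1 and Control 2.

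Ion channel and receptor genes changed by member. Of 58 potassium channel genes, 17 rose and 22 fell (median -0.10), and 7 and 3 without the library term. Kcnmb2, an auxiliary subunit of the large-conductance channel, went from 17.2 to 111 CPM in Sox11 1 and 15.8 to 62.7 CPM in Sox11 2 (2.24, SE 0.10). The fast-spiking channel gene Kcnc2 and the ether-a-go-go gene Kcnh8 rose by 2.44 and 3.30. Kcng2, a silent subunit, went from 9.33 to 2.33 CPM in Sox11 1 and 12 to 1.70 CPM in Sox11 2, and the leak channel gene Kcnk3 fell by 1.11. Of 36 sodium, calcium and HCN channel genes, 12 rose and 8 fell (median 0.06), and 6 and 2 without the library term. Scn3a, the sodium channel of fetal neurons, went from 63.4 to 187 CPM in Sox11 1 and 75 to 199 CPM in Sox11 2 (1.40, SE 0.08). Cacng4 rose by 3.40, and Hcn2, a pacemaker channel, fell by 0.89. Of 46 glutamate and GABA receptor genes, 8 rose and 17 fell (median -0.05), and 3 and 5 without the library term. Grm3 went from 291 to 579.5 CPM in Sox11 1 and 339 to 679 CPM in Sox11 2, Grin3a, an NMDA subunit of young neurons, rose by 1.37, and the obligatory NMDA subunit gene Grin1 went from 475 to 319 CPM in Sox11 1 and 409 to 281 CPM in Sox11 2. The scaffold gene Homer1 fell by 1.10.

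Cholesterol genes were the list with the largest share of fallen members. Of 25 tested, 20 fell and 1 rose (median -0.84), and 22 were lower in both libraries. Srebf2, the transcription factor that switches the pathway on, went from 77.5 to 34.5 CPM in Sox11 1 and 59.9 to 32.6 CPM in Sox11 2 (-1.11, SE 0.09). Hmgcs1, an early enzyme of the pathway, went from 38.2 to 13.6 CPM in Sox11 1 and 39.9 to 18.8 CPM in Sox11 2 (-1.36). Cyp51, Msmo1 and Nsdhl, which act after lanosterol, fell by 1.02, 1.42 and 1.61. Tm7sf2 was the 1 member that rose (0.66). Non-responding nuclei summed to 522 and 537 CPM over the list in Sox11 1 and Sox11 2, responding nuclei to 325 and 351 CPM, and non-responding nuclei of Control 1 and Control 2 to 523 and 578 CPM. The responding sums were the 2 lowest of these. Thinned nuclei gave 11 falls and 1 rise, DESeq2 10 falls, and the fit without the library term 6 falls (16 at an unadjusted p under 0.05).

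Oxidative phosphorylation and immediate early genes fell by smaller steps. Of 43 nuclear-encoded subunit genes of the respiratory chain, 26 fell and 0 rose in the edgeR test (32 and 0 at an unadjusted p under 0.05), with a median of -0.38 and 35 lower in both libraries. Uqcrc1 went from 41.3 to 25.9 CPM in Sox11 1 and 35.1 to 23.9 CPM in Sox11 2 (-0.69, SE 0.10), and Cox5a and Atp5a1 fell by 0.54 and 0.45. DESeq2 called 4 falls (median -0.38) and the fit without the library term 0 (6 at an unadjusted p under 0.05; median -0.39). In thinned nuclei 5 fell and the median was -0.20. Of 25 immediate early and stress genes, 12 fell and 0 rose (14 and 0 unadjusted; median -0.53). Npas4 and Arc, which neuronal activity induces, went from 15.3 to 4.60 CPM in Sox11 1 and 7.77 to 2.39 CPM in Sox11 2, and from 10.3 to 3.28 CPM in Sox11 1 and 12.4 to 4.78 CPM in Sox11 2. Fosb and Junb fell by 1.90 and 0.93, whereas the chaperone gene Hspa8 did not pass (43.4 to 48.2 CPM in Sox11 1 and 47.9 to 46.7 CPM in Sox11 2). DESeq2 called 4 falls and the fit without the library term 1, and with Gpc2 and Zfp57 setting the sides 2 genes rose and 12 fell. In thinned nuclei 5 fell (median -0.29).

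**Figure D5:**
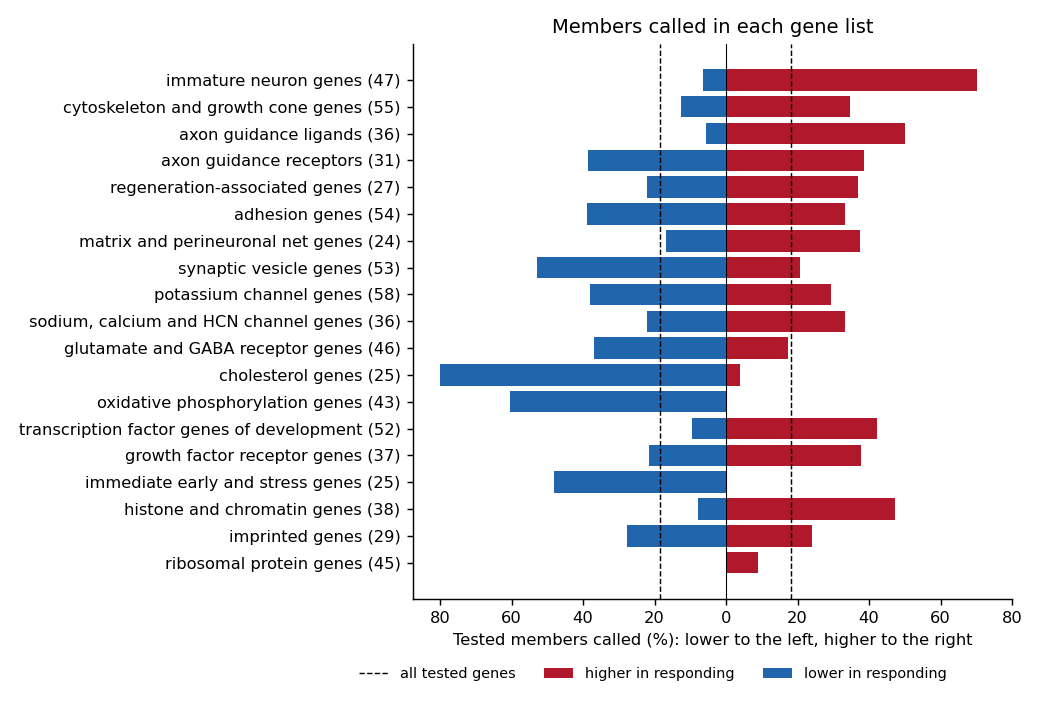
Percent of tested members called lower (left) and higher (right) in responding nuclei for 19 gene lists, with the number tested in brackets; dashed lines mark the percentages over all genes, 18.4% lower and 18.2% higher. Immature neuron genes reach furthest to the right and cholesterol genes furthest to the left.

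Ribosomal protein and imprinted genes showed little common movement. Of 45 ribosomal protein genes, 4 rose and 0 fell (4 and 0 unadjusted; median 0.04), below the background in both directions, and neither DESeq2 nor the fit without the library term called any. Of 29 imprinted genes, 7 rose and 8 fell (median 0.08), and 2 fell without the library term. Snrpn rose by 0.45, with 0.86 in Sox11 1 and 0.11 in Sox11 2, and Peg3 and Airn fell by 0.54 and 0.99. The list was included because Zfp57 guards imprints.

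Identity markers stayed detected on both sides, and several were lower in responding nuclei. Of 22 corticospinal and layer 5 markers, 3 rose and 10 fell (median -0.15), and 3 fell without the library term. Beside Slco2a1, the growth factor binding protein gene Igfbp4 went from 32.8 to 14.6 CPM in Sox11 1 and 33.7 to 16.1 CPM in Sox11 2 (-1.19), and the heavy neurofilament gene Nefh fell by 1.03. S100a10 rose by 1.13, and Ldb2 and Pcp4 did not pass (994 to 972 CPM in Sox11 1 and 860.3 to 859 CPM in Sox11 2 for Ldb2). The genes of the gate chose the nuclei and are given as levels with no test, from non-responding to responding. Slc17a7 was lower, at 176 to 144 CPM in Sox11 1 and 142 to 106 CPM in Sox11 2. Bcl11b stood at 413 to 583 CPM in Sox11 1 and 351 to 441 CPM in Sox11 2. Fezf2 stood at 31.0 to 32.3 CPM in Sox11 1 and 29.8 to 27.7 CPM in Sox11 2. Crym stood at 61.6 to 65.5 CPM in Sox11 1 and 66.4 to 67.3 CPM in Sox11 2. Summed levels of the corticospinal markers were 3561 and 3775 CPM in non-responding and 3478 and 3709 CPM in responding nuclei of Sox11 1 and Sox11 2.

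Markers of other neurons rose in part. Of 11 upper layer and intratelencephalic markers, 7 rose and 2 fell (3 and 0 without the library term), and of 7 markers of layer 6 and near-projecting neurons 3 rose and 1 fell (1 and 1). Cux2, a gene of upper layer neurons, went from 1.2 to 7.45 CPM in Sox11 1 and 2.02 to 8.49 CPM in Sox11 2 and stood at 44.0 and 30.7 CPM in the responding nuclei of Control 1 and Control 2. With Gpc2 and Zfp57 setting the sides the log2 fold changes of Cux2 and Slc17a6 were 0.01 and -0.30, and that of the inhibitory neuron marker Adarb2 was 0.94. In that fit 5 of the 11 upper layer markers were higher and 2 lower. Of the 7 layer 6 and near-projecting markers 2 were higher and 2 lower. Of 4 inhibitory neuron markers 1 was higher and 0 lower, and of 2 hindbrain markers 0 were called. Of 19 hindbrain and spinal markers 2 could be tested and 1 rose, Slc17a6 (2.53 to 6.92 CPM in Sox11 1 and 4.89 to 12.6 CPM in Sox11 2; 50.1 and 42.7 CPM in Control responding nuclei). Of 11 inhibitory neuron markers 4 were tested and 2 rose, with Adarb2 at 3.86 to 15.2 CPM in Sox11 1 and 2.33 to 25.2 CPM in Sox11 2 and 72.1 and 135 CPM in Control responding nuclei. Of 3 tested markers of midbrain and hypothalamus 1 rose, and without the library term none of the hindbrain and midbrain markers was called. Summed over the lists, hindbrain markers stood at 5.86 and 6.53 CPM on the non-responding and 11.3 and 17.4 CPM on the responding side of Sox11 1 and Sox11 2. Their part in the rises was not tested.

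Glial markers did not rise together. Of 4 oligodendrocyte markers tested, Mog rose (from 0.266 to 3.91 CPM in Sox11 1 and 0.855 to 4.17 CPM in Sox11 2) and Mbp fell. Of 5 astrocyte markers, the glutamate transporter gene Slc1a2, which neurons also express, rose by 0.59, and 2 fell. Of 4 microglia and vessel markers 0 rose in the edgeR test (0 at an unadjusted p under 0.05, and 0 with DESeq2) and P2ry12 fell by 0.66. Summed oligodendrocyte markers were 76.5 and 67.3 CPM in non-responding and 72.8 and 60.3 CPM in responding nuclei of Sox11 1 and Sox11 2. Summed astrocyte markers were 196 and 201 CPM in non-responding and 325 and 280.2 CPM in responding nuclei, and summed microglia and vessel markers 31.7 and 30.5 CPM against 26.5 and 23.8 CPM. Their part in the results was not tested.

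The same split by response sum was made in the Control libraries as a background. There 38 and 25 responding nuclei were compared with 826 and 721 non-responding nuclei, and of 14141 genes tested 481 (3.40%) were higher and 287 (2.03%) lower, 5.43% in all. Of the 5758 genes called in the Sox11 libraries, 425 were also called in the Control libraries in the same direction and 88 in the opposite direction. In 1 fit of 8 sums the difference between sides itself differed between Sox11 and Control libraries for 1397 of 16823 genes (8.30%), with 804 (4.78%) higher and 593 (3.52%) lower in Sox11. Among the 5758 called genes it differed for 1050, and in 893 of these the Sox11 difference went further in its own direction. These fits share the Sox11 sums, so the counts are not independent of the calls above. Leaving out Sox11 1 or Sox11 2 changed the number from 1397 to 642 and 828.

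Sex of the nuclei was taken into account in a further fit. With library and sex together as the block, 2666 genes (20.1%) were higher and 2731 (20.6%) lower of 13274 tested, and 4922 of the 5274 main calls that could be tested were called in the same direction. Among genes that rose by at least 2-fold, 533 of 535 tested were called again, and among those that fell, 378 of 380. Female nuclei alone gave 2071 higher (14.9%) and 1955 lower (14%) genes of 13929, and male nuclei alone 1872 (14.2%) and 1757 (13.3%) of 13226. Of the genes called with all nuclei, 3809 of 5435 tested were called in the same direction in female nuclei and 3471 of 5286 in male nuclei. Animals of one sex cannot be told apart.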

How the data were processed

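Nuclei were sorted and captured with a 10x 3′ kit, per the labels' protocols. The deposited tables hold raw UMI counts per gene and barcode that the authors made with Cell Ranger (versions 7.1.0, 7.1.0, 7.2.0 and 8.0.0 in Control 1, Control 2, Sox11 1 and Sox11 2, per the file headers; 7.0.1 and mm10 per the submitters' processing notes). The libraries held 2166 to 4383 barcodes and 34215523 to 61679959 UMIs in 32285 shared genes.

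For each library the UMIs of each side were summed, and the sums were fitted with edgeR 4.0.16 (quasi-likelihood test, TMM scaling, low counts filtered with filterByExpr, library as a block), with p-values Benjamini-Hochberg adjusted over all genes tested. The 5 rule genes were left out of the results. Both sides come from 1 library, so the library pairs the sums by design. Alternatives were the fit without the block, DESeq2 1.42.0, its size factors, no filter, thinned or depth-matched nuclei, other limits, other rule genes, nuclei kept after scrublet (scanpy 1.11.5), 1 sex at a time, and the same split in the Control libraries with a test of the difference. Doublets were not removed in the fits reported, except in that alternative.

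The genes named first were the 12 called genes with the largest rise and the 12 with the largest fall among genes with a mean of at least 10 CPM over the 4 sums; 1 of the fallen genes and some list members are not reported here. Other genes were named from 28 lists. The nuclei, the rule and the lists were chosen with earlier results of these data known. On simulated counts the fit recovered 73% of 2-fold and 95% of 4-fold changes in the Sox11 comparison, with 11 false calls among 15728 genes. Those counts were drawn with the spread of the same fit, equal for every gene. The number of false calls therefore does not measure the error among the reported calls. Injury, time course and embryonic samples were not analysed here.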

Additional observations from a re-analysis of the deposited data

Results flagged for a closer look

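The difference between sides itself differed between Sox11 and Control libraries for 14 of the 23 reported genes with the largest changes (adjusted p under 0.05 in 1 edgeR fit of 8 sums). The values below are log2 fold changes in Sox11 minus those in Control. Among risen genes the difference was 3.53 for St8sia2, 3.28 for 2610307P16Rik and 2.74 for Vcan. St8sia2, 2610307P16Rik and Vcan had 0 UMIs in the responding nuclei of 1 Control library each, where 3 UMIs stand for 3.67 CPM in Control 1 and 4.00 CPM in Control 2, so the size of these differences depends on how the fit treats low counts. The difference was -1.99 for Erbb4, -1.79 for Nxph1 and -2.17 for Nhs, which rose further between the Control sides. Among fallen genes it was -2.08 for Slc24a4, -1.73 for Coro6, -2.04 for Exph5, -1.98 for Aifm3, -1.2 for Slco2a1, -1.67 for Gm13832, -1.74 for Adamts2 and -2.03 for Syt12.

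Some entries of the gene tables are vector sequences that no comparison used. In Sox11 2 the entry BC102 stood at 784 CPM in responding and 269.6 CPM in non-responding nuclei, and 78.3% and 54.8% of nuclei had a UMI of it. In that library BC1 stood at 0.540 CPM in responding and 0 in non-responding nuclei, and BC0 at 0.926 and 11.9 CPM. The BC0 levels rest on few nuclei: 0.395% of responding nuclei held 12 UMIs and 0.532% of non-responding nuclei held 153. There mGL stood at 6.17 and 3.65 CPM and the Sox11 entry at 0.463 and 0 CPM. In Sox11 1, BC1 stood at 2.06 CPM in responding and 1.47 in non-responding nuclei, BC0 at 0.476 and 0.533 CPM, mGL at 4.02 and 2.27 CPM and the Sox11 entry at 0.370 and 0.133 CPM. The labels do not say what each entry encodes, and none of these differences was tested.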

How the results depend on the processing

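The main counts of 2860 higher and 2898 lower genes were 1401 and 1487 in thinned nuclei, 1872 and 1757 in male nuclei, 511 and 301 without the library (replicate) block, and 1074 and 1040 with DESeq2, whose calls were made at the same threshold. The library term pairs the 2 sums of each library by design. Between the Control sides the count of 768 became 396 without that block, 480 with DESeq2 and 1203 without the filter. The count of 1397 differences between Sox11 and Control became 170 without the block, 730 with DESeq2, 919 in depth-matched nuclei, and 642 to 1852 when 1 library was left out (1216 and 1852 without Control 1 and Control 2). Without 1 Sox11 library the comparison of sides has no residual degree of freedom, so each library's fold change is given without a test.

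Responding shares are given here for Sox11 1, Sox11 2, Control 1 and Control 2 in turn. They were 33.2%, 15.6%, 1.63% and 1.30% in thinned nuclei, 43.5%, 23.2%, 2.14% and 1.78% with a limit of 5, and 35.1%, 24.9%, 0% and 0.237% with Gpc2 and Zfp57 alone. In the Control libraries they were 6.11% and 5.58% with Chn2, Kcnk2 and Thsd7a, 2.58% and 1.84% after scrublet, 2.54% and 1.68% without Slc17a6 or Hox UMIs, and 2.45% in Control 1 with 2 identity genes.

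With Gpc2 and Zfp57 alone, Erbb4 (-0.62) and Nxph1 (-0.17) changed sign. Erbb4 passed there (adjusted p = 0.000224, edgeR) and Nxph1 did not (adjusted p = 0.340). Of 414 alternative tests for the 23 named genes, 408 kept direction and side of the threshold. A further 4 kept direction but lost significance, and these 2 changed sign. In the 46 fold changes with 1 Sox11 library left out, which have no test, the direction was the same; 2610307P16Rik was 1.81 without Sox11 1 and Grik1 2.15 without Sox11 2. Genes under 10 CPM rest on few UMIs, and 228 called genes differed by more than 1 on the log2 scale between the libraries, of which 26 had 10 CPM or more.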

Other observations

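Some called genes moved unlike in the 2 Sox11 libraries. These were chosen after their values were seen, and the difference between libraries was not tested. Alk, a receptor tyrosine kinase, went from 55.3 to 44.9 CPM in Sox11 1 and 16.1 to 35.9 CPM in Sox11 2, so that the sides moved in opposite directions. Pcdh10, a protocadherin, went from 26.2 to 12.6 CPM in Sox11 1 and 21.7 to 24.0 CPM in Sox11 2. Tafa2, a secreted chemokine-like protein, went from 78.7 to 17.5 CPM in Sox11 1 and 50.6 to 32.3 CPM in Sox11 2. The axon growth receptor Met rose in both, from 7.46 to 46.3 CPM in Sox11 1 and 19.4 to 59.7 CPM in Sox11 2.

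Prkg1, the kinase that responds to cyclic GMP, went from 16 to 18.7 CPM in Sox11 1 and 8.55 to 38.4 CPM in Sox11 2, and stood at 274 and 156 CPM in the responding nuclei of Control 1 and Control 2. The noncoding gene Rmst went from 6.66 to 32.5 CPM in Sox11 1 and 4.27 to 42.9 CPM in Sox11 2, against 323 and 228 CPM there. Both genes were higher in the few Control responding nuclei than on any side of the Sox11 libraries.

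The rule was also read in the deep barcodes without a UMI of Slc17a7, which the gate leaves out. A sum of 3 or more was reached by 51.3% of them in Control 1 and 51.2% in Control 2, and by 75% in Sox11 1 and 63.2% in Sox11 2. Levels of the single genes in these barcodes were not compared.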
